A study of Mus musculus with 6 samples.

Results

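Genes of glucose uptake, glycolysis, lactate handling, pyruvate entry into mitochondria and the hypoxia response were followed in CD4 T cells of the colon in a mouse colitis model. The members were a fixed list of 36 gene symbols, found in a count table of 55335 genes by the symbol given there, and all 36 were present. Aldoa stood there under a second identifier with at most 4 counts in a library, which was left out. Each of the 36 identifiers matched the GENCODE M21 annotation of the mm10 (GRCm38) mouse genome, which supplies the coordinates (1-based).

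The cells descended from naive splenic CD4 T cells of TcfGFP mice, in which GFP reports the Tcf7 locus. They had been transferred into Rag1 KO hosts, which make no T or B cells of their own but keep their innate immune cells, as a means of causing colitis. CD4 T cells of the colon lamina propria were then sorted into a GFP-positive gate (called TCF7+ and stem-like in the labels) and a GFP-negative gate (TCF7-, called effector cells). Both gates share the reporter, the transfer and the Rag1 KO host, and there were 3 libraries in each. The labels give no age, time after transfer or number of mice, nor whether each replicate was a mouse of its own. The spread behind every p-value is therefore that between libraries, and may be technical.

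Library totals ran from 4309500 to 7462076 counts, and 3 counts correspond to 0.430 to 0.690 CPM (counts scaled to the library's total). All 10 T cell identity genes, Cd3e and Cd4 among them, had counts in every library, holding 0.584% to 0.816% of counts. GFP-positive replicate 3 stood apart. All 13 myeloid markers had counts there and held 0.721% of the total, against 0.0147% to 0.0161% in the other GFP-positive libraries and 0.0165% to 0.0218% in the GFP-negative ones. Adgre1, a macrophage marker, was at 0 in the other 5 libraries, and Itgam in 3 of them. The 6 antigen-presenting cell markers held 0.658%, against 0.0181% and 0.0270% in the other GFP-positive libraries and 0.0334% to 0.0428% in the GFP-negative ones. The 9 epithelial markers held 0.0381% against 0.00235% to 0.00723% elsewhere. The 10 stromal and endothelial markers held 0.0393% against 0.00424% to 0.00886%, with Cdh5, Kdr and Vwf at 0, and the 5 NK and innate lymphoid markers 0.0759% against 0.00297% to 0.0126%. Some markers did not follow their lists in GFP-positive replicate 3. Cebpb, a myeloid marker, had 11.3 CPM there and 0.866 and 0.920 CPM in GFP-positive replicates 1 and 2. In GFP-negative libraries it had 16.7 to 23.4 CPM. Krt18, an epithelial marker, had 20.2 CPM there and 23.9 CPM in GFP-negative replicate 3. Of the NK and innate lymphoid markers, Tyrobp and Fcer1g had 487 and 302 CPM there. Ncr1 had 7.60 CPM there and 8.19 CPM in GFP-negative replicate 2, and Eomes had its lowest value there (7.17 CPM). Pecam1 and Pdgfrb were higher in GFP-negative replicate 2 than there. All 12 cell cycle markers had log2 fold changes below 0 (median -1.12; 48.4% of all tested genes were below 0), 8 of them at an unadjusted p under 0.05 (66.7%, against 5.97% of all tested genes) and 0 at an adjusted p under 0.05 in edgeR's test. Results are therefore given with and without GFP-positive replicate 3. The comparison without it is not free of differences in such markers. All 4 tested antigen-presenting markers were then lower in GFP-positive libraries at an unadjusted p under 0.05 in edgeR's test (100%, against 7.56% of all tested genes). Of 9 tested myeloid markers, 2 were (22.2%), and Cebpb had an adjusted p of 0.00815.

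Glycolysis splits glucose into pyruvate in the cytosol. Its early steps spend ATP and its late steps, from glyceraldehyde phosphate onward, repay it. Pyruvate is then either reduced to lactate and exported or carried into mitochondria, where the pyruvate dehydrogenase complex turns it into acetyl-CoA. T cells raise glycolysis when they are activated and divide, while resting memory cells rely more on respiration. The factor HIF1A drives many of these genes when oxygen is low or after strong activation, and prolyl hydroxylases mark it for destruction when oxygen is present.

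Enzymes of the late steps of glycolysis had lower mean mRNA levels in GFP-positive than in GFP-negative libraries, but no member passed the test over all genes. Pgk1, Pkm, Eno1, Gapdh and Ldha had fitted levels 23.3% to 28.3% lower in GFP-positive libraries. Pdk1, a kinase that switches off pyruvate dehydrogenase, was the one member higher at an unadjusted p under 0.05, with a fitted fold change of 1.96. Hk2, Slc16a3, Bnip3 and Vegfa had their highest values in GFP-positive replicate 3. The markers of myeloid, antigen-presenting, stromal, epithelial and innate lymphoid cells also had their highest summed shares there. Not every marker in these lists was highest there. In sorted bulk cells, fewer cells with a transcript and less of it per cell cannot be told apart.

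Of the 36 members, 34 passed the filter on low counts. Bnip3 and Vegfa did not. By edgeR's quasi-likelihood test with Benjamini-Hochberg adjustment over 11074 genes, 0 members had an adjusted p under 0.05, while 0.108% of all tested genes did (0.0361% higher and 0.0722% lower in GFP-positive cells). DESeq2 and limma-voom called 0 members as well. At an unadjusted p under 0.05, 5 members were lower in GFP-positive cells (14.7% of the 34, where 5.97% of all tested genes were) and 1 was higher (2.94%, against 4.31%), where both directions together took in 10.3% of all genes. The CPM of 5 members lay wholly below the GFP-negative values (14.7%, against 8.8% of all genes), and those of 1 wholly above (2.94%, against 7.25%). In either direction 16% of all genes had gates that did not overlap. Negative log2 fold changes were found in 24 of the 34 (70.6%, against 48.4% of all tested genes), with a median of -0.23 where the median of all tested genes was 0.02.

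Without GFP-positive replicate 3, edgeR again called 0 of 34 members (0.37% of 11361 tested genes were called, 0.114% higher and 0.255% lower). The members lower at an unadjusted p under 0.05 then numbered 9 (26.5%, against 7.56% of all genes) and those higher 0 (against 4.65%, and 12.2% for both directions). With 2 libraries against 3, 12 members lay wholly below the GFP-negative range (35.3%, against 15.2%) and 2 wholly above (5.88%, against 14.2%), where 29.4% of all genes had gates apart. The median was -0.25, and 26 of 34 were negative (76.5%, against 48.8% of all genes). GFP-negative replicate 3 also weighed on these counts. Without it 0 members had an unadjusted p under 0.05 in either direction, and the median was -0.14.

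**Figure D1:**
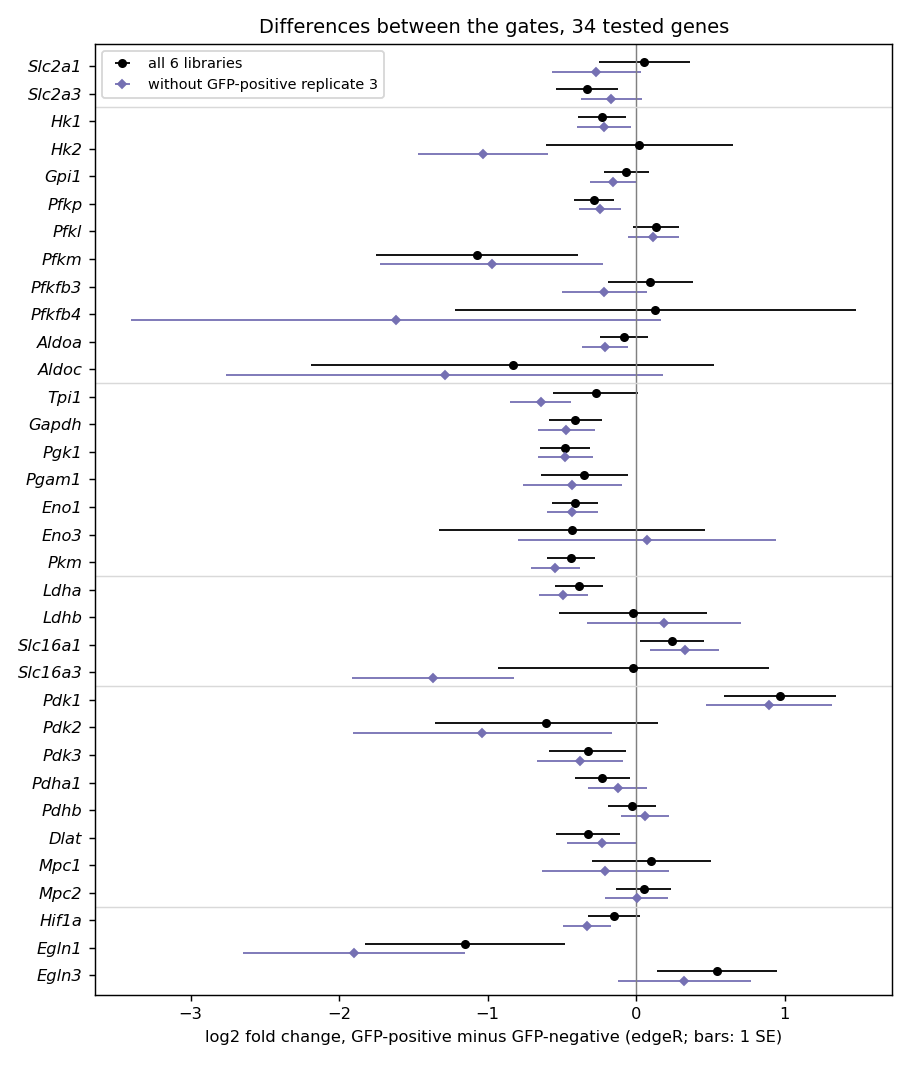
Log2 fold change (GFP-positive minus GFP-negative, edgeR; bars are 1 standard error) of the 34 tested members, grouped by role from glucose transport at the top to hypoxia at the bottom. Black points use all 6 libraries and purple diamonds leave out GFP-positive replicate 3. Gapdh, Pgk1, Eno1, Pkm and Ldha lie between -0.38 and -0.48 with all libraries and stay below 0 without that library, whereas Hk2 moves from 0.02 to -1.03 and Slc16a3 from -0.02 to -1.37.

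These genes differ widely in abundance. On the TPM scale, which is per gene length, Gapdh had a mean of 1026.0 TPM over the 6 libraries, Ldha 1020.4 and Aldoa 948 TPM, ranks 153, 154 and 166 among all genes. Pkm had 499.7, Eno1 482.2 and Hif1a 319.6 TPM. Most steps were thus carried by abundant transcripts, while the glucose transporters Slc2a3 and Slc2a1 stood at 52.0 and 42.8 TPM and the hexokinases Hk1 and Hk2 at 32.0 and 11.1 TPM. Taking the isoform with the highest mean TPM at each of 11 steps from hexokinase to lactate dehydrogenase, these transcripts summed to 4473.5, 5200.6 and 6102.6 TPM in GFP-negative replicates 1 to 3. In GFP-positive replicates 1 to 3 the sums were 3829.0, 4022.1 and 4229.3 TPM. All 3 GFP-positive sums were below the lowest GFP-negative one, and GFP-negative replicate 3 was the highest of the 6. The deposited TPM do not carry the TMM scaling used for CPM. In CPM the gates were apart at Pgk1, Eno1 and Pkm. They overlapped at the other summed genes, Gapdh and Ldha, the largest terms, among them. Sums of CPM were not taken, so the separation is shown for TPM alone.

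**Figure D2:**
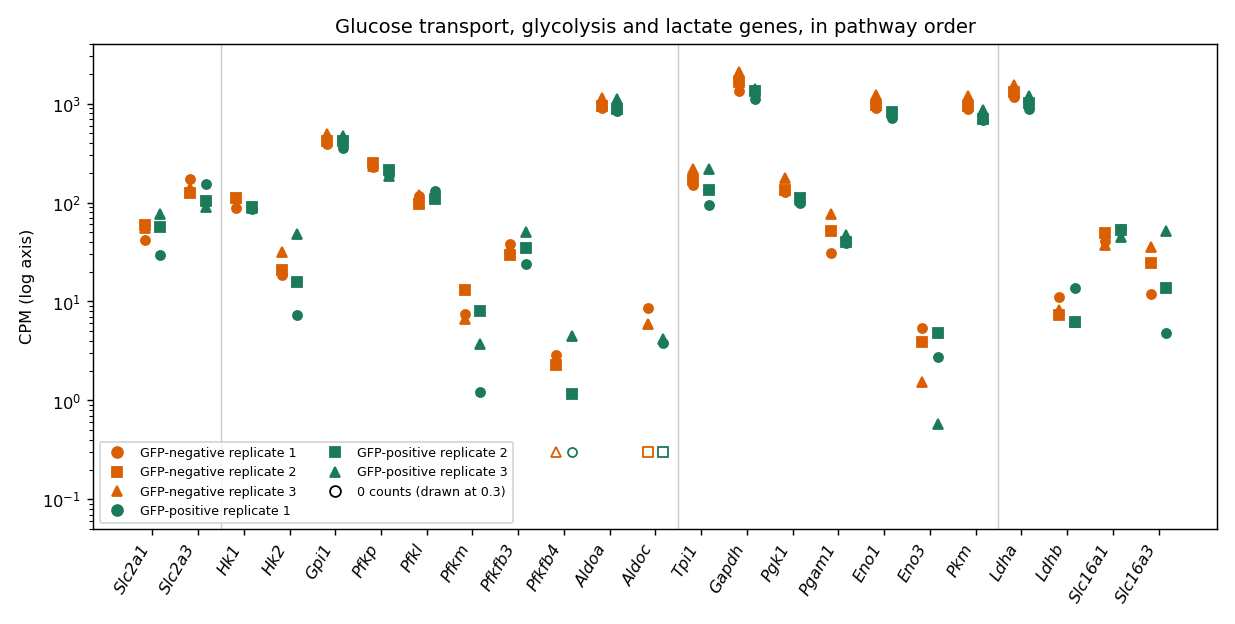
CPM on a log axis of the 23 genes of glucose transport, glycolysis and lactate in pathway order, one point per library, with GFP-negative libraries in orange and GFP-positive ones in green. Open symbols are libraries with 0 counts, drawn at 0.3. The gates are separated at Pfkp, Pgk1, Eno1 and Pkm and overlap at the other genes.

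Neither glucose transporter passed the test. Slc2a3 (chromosome 6, 122727809 to 122801640, minus strand), a high-affinity glucose transporter of lymphocytes, had 173.9, 123.9 and 140.1 CPM in GFP-negative replicates 1 to 3 and 155.7, 102.8 and 90.1 CPM in GFP-positive ones. The groups overlapped, and the log2 fold change was -0.33 ± 0.21 (SE). Single libraries decided its size: leaving out GFP-positive replicate 3 gave -0.17, GFP-negative replicate 1 gave -0.19 and GFP-positive replicate 1 gave -0.60. Slc2a1 (chromosome 4, 119108711 to 119137983), the transporter that activated T cells raise at their surface, had 41.7, 59.6 and 55.3 CPM against 29.4, 57.0 and 75.7 CPM. Its lowest and highest values were both GFP-positive libraries. Within the pair, Slc2a1 made up 28.1%, 53.4% and 63.5% of the TPM in GFP-positive replicates 1 to 3 and 33.1% to 49.8% in GFP-negative libraries.

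Hexokinase traps glucose in the cell by phosphorylation. Hk1 (chromosome 10, 62268855 to 62379908, minus strand), the constitutive form, varied little, at 103 ± 13.7 CPM in GFP-negative and 88.0 ± 2.66 CPM in GFP-positive libraries (SD, n = 3 each). Hk2 (chromosome 6, 82725025 to 82774454, minus strand), the form induced by activation and HIF1A, had 18.4, 20.7 and 31.8 CPM in GFP-negative and 7.27, 15.9 and 48.3 CPM in GFP-positive replicates 1 to 3. GFP-positive replicates 1 and 2 were thus the lowest of the 6 libraries and replicate 3 the highest. The log2 fold change of Hk2 was 0.02 ± 0.63 with all libraries and -1.03 ± 0.44 without GFP-positive replicate 3 (SE; edgeR adjusted p = 0.994 and 0.361).

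Of the other early-step genes, Gpi1, Pfkp, Pfkl and Pfkfb3 had log2 fold changes from -0.28 to 0.13 with all libraries. Without GFP-positive replicate 3 they were -0.16 ± 0.15 for Gpi1, -0.24 ± 0.14 for Pfkp, 0.12 ± 0.17 for Pfkl and -0.21 ± 0.28 for Pfkfb3 (SE). Gpi1, the isomerase that makes fructose phosphate, had 435 ± 47.8 and 415 ± 57.2 CPM (SD, n = 3 each; GFP-negative first here and in the pairs that follow). Pfkp (chromosome 13, 6579768 to 6648777, minus strand), the platelet form of phosphofructokinase, the enzyme that commits sugar to glycolysis, had 230.1, 249.5 and 236.2 CPM in GFP-negative and 189.8, 211.5 and 186.6 CPM in GFP-positive replicates 1 to 3. Its groups did not overlap. Its log2 fold change was -0.28 ± 0.13 (SE; edgeR unadjusted p = 0.0534, adjusted p = 0.498). Pfkl, the liver form, had 111 ± 11.8 and 121 ± 11.5 CPM, so that its share of phosphofructokinase TPM was 39.3% to 47.7% in GFP-negative and 47.1% to 57.3% in GFP-positive libraries. Pfkm, the muscle form, was scarce, on 7 to 57 counts. Exons of Pfkp overlap those of Pitrm1 on the other strand, which had 2049 counts in all against 6678 of Pfkp, so reads of the pair may be mixed.

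The bifunctional enzyme Pfkfb3, which makes the sugar signal that stimulates phosphofructokinase, had 34.3 ± 4.31 and 36.6 ± 13.4 CPM (SD, n = 3 each). Pfkfb4, its relative, had 0 to 31 counts and was at 0 in 1 library of each gate. Aldoa (chromosome 7, 126795234 to 126800751, minus strand), the main aldolase, which splits the sugar, had 906, 941 and 1148 CPM in GFP-negative and 842, 875 and 1112 CPM in GFP-positive replicates 1 to 3. The groups overlapped through GFP-positive replicate 3. Aldoa had a log2 fold change of -0.08 ± 0.16 with all libraries (SE). Without GFP-positive replicate 3 it was -0.21 ± 0.16 (SE), and the groups did not overlap. Aldoc was at 0 in 1 library of each gate and at most 44 counts elsewhere.

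The late-step list of 7 genes includes Tpi1, which interconverts the triose phosphates and acts just before the steps that repay ATP. All 7 had negative log2 fold changes with the full set of libraries, with a median of -0.41 (48.4% of all tested genes were negative). In edgeR's test 4 were lower at an unadjusted p under 0.05 (57.1%, against 5.97% of all tested genes lower). Without GFP-positive replicate 3, 6 of 7 were negative (85.7%, against 48.8%), 5 were lower at an unadjusted p under 0.05 (71.4%, against 7.56%) and the median was -0.47; the positive one, Eno3, had 4 to 28 counts. Gapdh (chromosome 6, 125161715 to 125166467, minus strand), which makes the first NADH of the pathway, had 1342, 1659 and 2086 CPM in GFP-negative and 1106, 1331 and 1394 CPM in GFP-positive replicates 1 to 3. The groups touched, since GFP-negative replicate 1 lay between GFP-positive replicates 2 and 3. The log2 fold change of Gapdh was -0.41 ± 0.18 (SE; edgeR unadjusted p = 0.0392, adjusted p = 0.456), and without GFP-negative replicate 3 it was -0.23.

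Pgk1 (chromosome X, 106187100 to 106203699), the kinase of the first ATP-yielding step, had 127.4, 133.3 and 178.5 CPM in GFP-negative and 98.7, 110.6 and 105.7 CPM in GFP-positive replicates 1 to 3. All GFP-positive values were below all GFP-negative ones. Its log2 fold change was -0.48 ± 0.17 with all libraries and -0.48 ± 0.19 without GFP-positive replicate 3 (SE). Pgk1 had the smallest p among the members in edgeR's test (unadjusted 0.0129, adjusted 0.327). Without GFP-negative replicate 3 it was -0.31.

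Eno1 (chromosome 4, 150236721 to 150248879), the main enolase, had 900, 977 and 1234 CPM in GFP-negative and 714, 819 and 804 CPM in GFP-positive replicates 1 to 3, without overlap. Pkm (chromosome 9, 59656368 to 59679375), pyruvate kinase, which makes pyruvate and ATP, had 876, 951 and 1199 CPM against 681, 695 and 854 CPM, again without overlap but by a narrow margin. In both genes GFP-negative replicate 3 was the highest library. Log2 fold changes were -0.41 ± 0.16 for Eno1 and -0.44 ± 0.16 for Pkm (SE; edgeR unadjusted p = 0.0200 and 0.0185, adjusted p = 0.379 and 0.373). Without GFP-negative replicate 3 they were -0.26 and -0.29. Counts per gene do not separate the muscle and embryonic splice forms of Pkm.

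Tpi1 (chromosome 6, 124810586 to 124814296, minus strand), which interconverts the triose phosphates, had 149.4, 170.1 and 219.7 CPM in GFP-negative and 95.3, 134.3 and 216.6 CPM in GFP-positive replicates 1 to 3. GFP-positive replicates 1 and 2 were the lowest of the 6 libraries and replicate 3 the second highest. Its log2 fold change was -0.27 ± 0.29, and -0.64 ± 0.21 without that library (SE; edgeR unadjusted p = 0.00857, adjusted p = 0.22). Pgam1, the mutase, had 53.4 ± 23.2 and 41.9 ± 4.37 CPM (SD, n = 3 each). Eno3, the muscle enolase, made up 0.22% to 1.83% of enolase TPM.

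Pyruvate is turned to lactate by lactate dehydrogenase, and Ldha held 96.9% to 98.9% of the TPM of Ldha and Ldhb together in every library. Ldha (chromosome 7, 46841475 to 46855627), the muscle subunit, had 1176, 1322 and 1525 CPM in GFP-negative and 889, 1011 and 1184 CPM in GFP-positive replicates 1 to 3. GFP-positive replicate 3 lay just above GFP-negative replicate 1, and the gates were otherwise apart. Its log2 fold change was -0.38 ± 0.16 with all libraries and -0.49 ± 0.16 without GFP-positive replicate 3 (SE; edgeR adjusted p = 0.432 and 0.235). Ldhb, the heart subunit, had 27 to 79 counts.

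Lactate leaves the cell through monocarboxylate transporters. Slc16a3 (chromosome 11, 120948480 to 120960868), the exporter of glycolytic cells, had 11.8, 24.3 and 35.7 CPM in GFP-negative and 4.85, 13.8 and 51.8 CPM in GFP-positive replicates 1 to 3. As with Hk2, the lowest and the highest library were both GFP-positive, replicates 1 and 3. Its difference was -0.02 ± 0.91 on the log2 scale with all libraries and -1.37 ± 0.55 without GFP-positive replicate 3 (SE; edgeR adjusted p = 0.996 and 0.326). Slc16a1 (chromosome 3, 104638668 to 104658462), the transporter that works in both directions, had 40.7, 49.1 and 37.5 CPM in GFP-negative and 53.7, 52.2 and 44.8 CPM in GFP-positive libraries. It was one of the 10 tested members with a positive log2 fold change, by 0.24 ± 0.22 on the log2 scale (SE; edgeR adjusted p = 0.767).

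The mean log2 CPM of the 7 late-step genes came to 7.39, 7.54 and 7.72 for GFP-negative replicates 1 to 3, and to 7.02, 7.30 and 7.12 for the GFP-positive ones. That of the 12 cell cycle markers was 5.996, 6.87 and 7.35 against 5.34, 5.95 and 5.90. GFP-negative replicate 3 was highest and GFP-positive replicate 1 lowest in both lists. The part of the cell cycle genes in the difference of the glycolytic ones was not tested. The 10 early-step genes averaged 5.70, 5.31 and 5.49 against 4.81, 5.10 and 5.78, and so did not order all the libraries by gate. GFP-positive replicates 1 and 2 were below every GFP-negative library, and GFP-positive replicate 3 was above them all. With all libraries, 6 of the 10 were negative (60%, median -0.07). Without GFP-positive replicate 3, 9 of the 10 were negative (90%, against 48.8% of all tested genes), with a median of -0.23. Every gene weighs the same in these means, so scarce ones can decide the order of the libraries. Of the late-step genes, Eno3 had 4 counts in GFP-positive replicate 3. Of the early-step genes, Pfkfb4 and Aldoc were each at 0 in 1 library of each gate. Means without these scarce genes were not taken, so the order by gate may rest on them.

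Promoters of the members were searched for the core of the hypoxia response element, to show which of them carry its letters next to their start. The search took ACGTG and GCGTG on both strands in the 250 bases before the start, in RefSeq promoters (GRCm38.p6) of 35 members; Slc2a3 was not among them. A palindrome CACGTG, which is also the E-box bound by MYC and USF factors, counts as 2 matches. At least 1 match was found in 28 of 35 members (80.0%), in 38.6% of 32851 promoters in all, and in 56.8% of 10605 promoters of genes tested here. At least 2 matches were found in 17 members (48.6%), against 16.7% and 27.9%. Where a member has several starts in the table, the one nearest to the 5′ end of its M21 gene was used. The 2 comparison sets were not reduced in this way and count every listed start, so their shares are not strictly alike to those of the members. In 19 of the 35, Ldha and Pkm among them, the searched bases lie partly or wholly inside the M21 gene, whose outermost start is farther upstream. The 4 stretches below are those of Pgk1 and Ldha, which had lower values and have at least 2 matches, of Pkm, which has none, and of Pdk1, which had higher values. Capitals mark the matches, and each is written 5′ to 3′ on the strand of its gene.
Pgk1 (chrX:106186850-106187099, plus strand): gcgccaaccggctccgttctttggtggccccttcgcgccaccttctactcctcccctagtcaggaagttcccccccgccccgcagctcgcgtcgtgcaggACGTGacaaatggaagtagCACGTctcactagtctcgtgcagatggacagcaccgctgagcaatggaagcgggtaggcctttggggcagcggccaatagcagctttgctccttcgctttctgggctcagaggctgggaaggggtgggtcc
Ldha (chr7:46845554-46845803, plus strand): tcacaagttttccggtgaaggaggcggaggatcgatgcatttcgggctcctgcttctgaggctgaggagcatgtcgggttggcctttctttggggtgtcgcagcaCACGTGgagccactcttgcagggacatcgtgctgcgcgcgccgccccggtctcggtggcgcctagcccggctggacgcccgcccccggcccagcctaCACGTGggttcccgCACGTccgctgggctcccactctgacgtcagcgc
Pkm (chr9:59656326-59656575, plus strand): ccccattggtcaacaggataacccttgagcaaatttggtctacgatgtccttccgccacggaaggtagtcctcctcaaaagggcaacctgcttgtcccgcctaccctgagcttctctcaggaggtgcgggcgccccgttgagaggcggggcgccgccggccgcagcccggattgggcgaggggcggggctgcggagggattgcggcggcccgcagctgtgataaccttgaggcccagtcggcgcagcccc
Pdk1 (chr2:71872974-71873223, plus strand): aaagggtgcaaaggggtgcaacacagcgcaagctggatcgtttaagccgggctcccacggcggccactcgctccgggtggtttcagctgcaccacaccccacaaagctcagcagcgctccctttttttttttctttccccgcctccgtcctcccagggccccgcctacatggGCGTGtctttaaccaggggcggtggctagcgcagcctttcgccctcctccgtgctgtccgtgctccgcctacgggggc
Pgk1 has 2 matches of ACGTG, 127 to 150 bases before the start. Ldha has 5 matches, from 2 palindromes and 1 further ACGTG, Pdk1 has 1 match of GCGTG 74 to 78 bases before the start, and Pkm has 0. Gapdh has 2 and Eno1 has 1, both of GCGTG. For Pkm, 208 of the 250 searched bases lie inside the M21 gene. A part of these letters in the differences between the gates was not tested. A match is a description of the sequence and no sign of binding.

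Pyruvate enters mitochondria through a carrier made of Mpc1 and Mpc2 and is oxidised by pyruvate dehydrogenase, which the Pdk kinases inhibit. Pdk1 (chromosome 2, 71873224 to 71903858) had 17.8, 24.3 and 8.11 CPM in GFP-negative and 24.6, 37.5 and 36.4 CPM in GFP-positive replicates 1 to 3, on 37 to 254 counts. All GFP-positive values were above all GFP-negative ones, although GFP-positive replicate 1 and GFP-negative replicate 2 nearly met. Its log2 fold change was 0.97 ± 0.38 with all libraries and 0.89 ± 0.42 without GFP-positive replicate 3 (SE; edgeR unadjusted p = 0.0237 and 0.0559, adjusted p = 0.393 and 0.425). Without GFP-negative replicate 3, the lowest library of this gene, it was 0.64.

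Among the kinases Pdk1, Pdk2 and Pdk3, the last was the most abundant by TPM. Pdk1 made up 3.95% to 13.4% of their sum in GFP-negative and 17.6% to 21.3% in GFP-positive libraries. A further kinase of this family, Pdk4, had 0 counts in every library. Pdk3 itself had 51.5 ± 14.8 and 41.1 ± 6.32 CPM (SD, n = 3 each), and differed in the opposite direction to Pdk1, by -0.33 ± 0.26 on the log2 scale (SE; edgeR adjusted p = 0.727). It ran from -0.55 without GFP-negative replicate 1 to -0.20 without GFP-negative replicate 3. Pdk2 was scarce, with 3 to 43 counts.

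The dehydrogenase itself differed little. Pdhb (chromosome 14, 8165996 to 8173025, minus strand), which encodes the beta chain of its E1 enzyme, had 212.4, 210.3 and 163.4 CPM in GFP-negative and 220.1, 184.8 and 170.0 CPM in GFP-positive replicates 1 to 3. The ranges coincided, and the log2 fold change was -0.03 ± 0.16 (SE). Pdha1, the alpha chain, had 94.6 ± 9.88 and 80.7 ± 15.9 CPM (SD, n = 3 each). Dlat (chromosome 9, 50634633 to 50659780, minus strand), the acetyltransferase core, had 43.4, 52.3 and 48.2 CPM against 38.6, 42.8 and 33.9 CPM. Its groups did not overlap, with less than 1 CPM between the nearest libraries, and the log2 fold change was -0.32 ± 0.22 (SE; edgeR adjusted p = 0.675). Of the carrier, Mpc2 had 66.2 ± 7.99 and 68.6 ± 5.74 CPM and Mpc1 13.1 ± 1.87 and 14.0 ± 5.34 CPM (SD, n = 3 each).

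**Figure D3:**
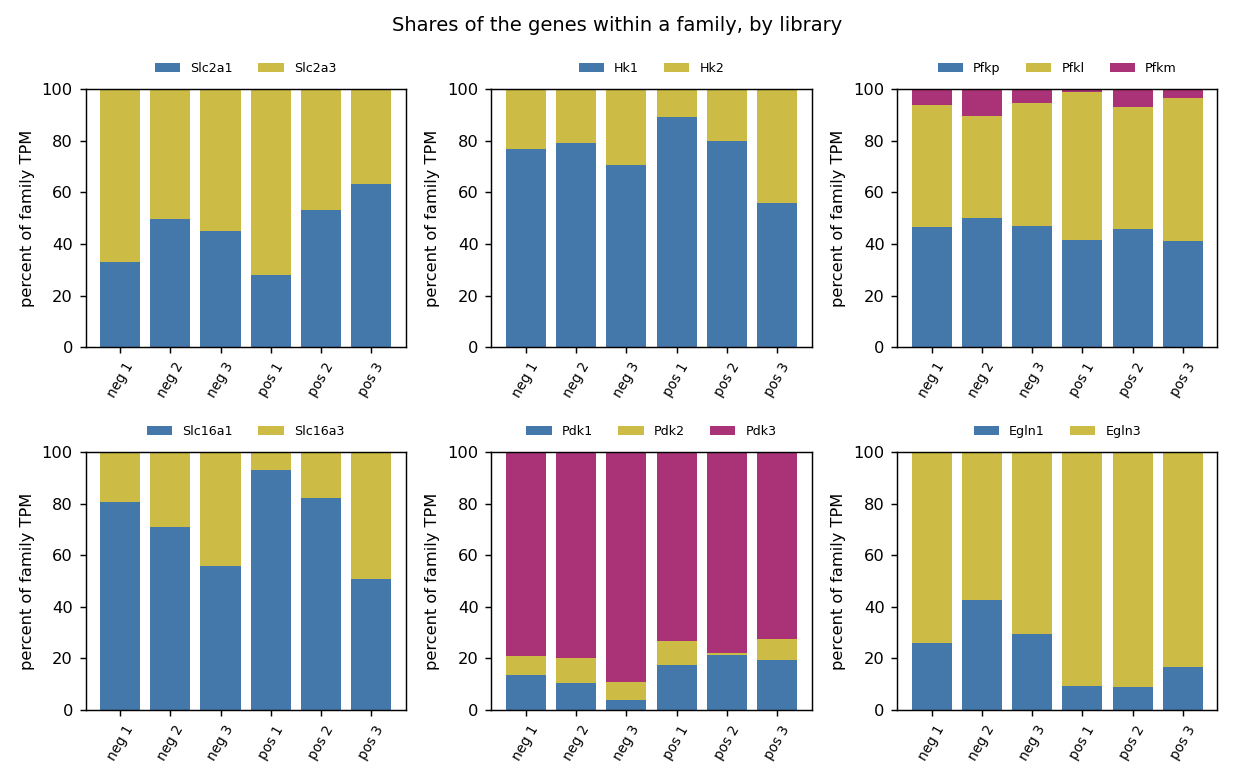
Percent of a family's summed TPM held by each of its genes in each library (neg, GFP-negative; pos, GFP-positive; numbers are replicates). The share of Pdk1 is larger in each GFP-positive library than in any GFP-negative one, that of Egln1 smaller, and the shares of Hk2 and Slc16a3 are largest in GFP-positive replicate 3.

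Hif1a (chromosome 12, 73901375 to 73947530), the oxygen-regulated factor itself, had 663, 648 and 785 CPM in GFP-negative and 494, 611 and 783 CPM in GFP-positive replicates 1 to 3. GFP-positive replicates 1 and 2 were the lowest of the 6 and replicate 3 nearly the highest. The log2 fold change was -0.15 ± 0.18 with all libraries and -0.33 ± 0.16 without GFP-positive replicate 3 (SE; edgeR adjusted p = 0.833 and 0.438). The protein is controlled mostly by its decay, which mRNA counts do not show. Exons of Hif1a overlap those of Gm15283 on the other strand, which had 1140 counts in all against 20815 of Hif1a.

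The prolyl hydroxylases that mark HIF1A for decay differed in opposite directions, and neither passed the test. Egln1 (chromosome 8, 124908587 to 124949324, minus strand), the main oxygen sensor, had 5.04, 7.504 and 8.99 CPM in GFP-negative and 1.73, 2.07 and 5.74 CPM in GFP-positive replicates 1 to 3, on 9 to 41 counts. GFP-positive replicate 3 lay within the GFP-negative range. The log2 fold change was -1.15 ± 0.67 with all libraries and -1.90 ± 0.75 without GFP-positive replicate 3 (SE; edgeR unadjusted p = 0.111 and 0.0257, adjusted p = 0.624 and 0.317). Egln3, the hydroxylase that HIF1A itself induces, had 11.3 ± 4.18 and 16.5 ± 4.36 CPM (SD, n = 3 each), and differed by 0.54 ± 0.41 on the log2 scale (SE; edgeR adjusted p = 0.713). Leaving out GFP-positive replicate 3 gave 0.32, GFP-negative replicate 2 gave 0.31 and GFP-negative replicate 3 gave 0.86. Egln1 made up 25.9% to 42.6% of the TPM of the pair in GFP-negative and 8.93% to 16.7% in GFP-positive libraries.

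Bnip3, a mitophagy receptor, and Vegfa, the angiogenic factor, are classical hypoxia targets and were near the counting floor in 5 libraries. Bnip3 had 5, 6 and 2 counts in GFP-negative and 1, 3 and 89 counts in GFP-positive replicates 1 to 3. Vegfa had 0, 3 and 0 counts in GFP-negative and 0, 0 and 83 counts in GFP-positive replicates 1 to 3, that is 11.9 CPM in the last. Both were thus seen above the floor of 3 counts by a wide margin in 1 library, GFP-positive replicate 3. That is the library in which Lyz2, the lysozyme of myeloid cells, had 4217 CPM against 65.8 to 100.4 CPM elsewhere and Csf1r 132 CPM against 0.582 to 4.32 CPM. Dcn, a stromal marker, had 222 CPM there and at most 6.40 CPM elsewhere, and the epithelial, antigen-presenting and innate lymphoid shares given above were highest there too. The part of any of these cells in the values of Bnip3, Vegfa, Hk2, Slc16a3 and Tpi1 was not tested.

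In that library, Hk2 was at 4.18 times and Slc16a3 at 5.55 times the mean of GFP-positive replicates 1 and 2, and Egln1 at 3.02 times. The ratio was 1.01 for Pgk1, 1.05 for Eno1, 1.14 for Gapdh, 1.24 for Pkm and 1.25 for Ldha. Of the other late-step genes, Tpi1 stood at 1.89 times, Pgam1 at 1.19 times and Eno3, on 4 counts there, at 0.151 times. Of the 34 tested members, 8 had their highest CPM in GFP-positive replicate 3, 13 in GFP-negative replicate 3, and 18 their lowest in GFP-positive replicate 1. Such counts were not made for all tested genes, so they have no share to stand against. The mean log2 CPM of all 11074 tested genes was also lowest in GFP-positive replicate 1 (4.68) and highest in GFP-positive replicate 3 (4.83).

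**Figure D4:**
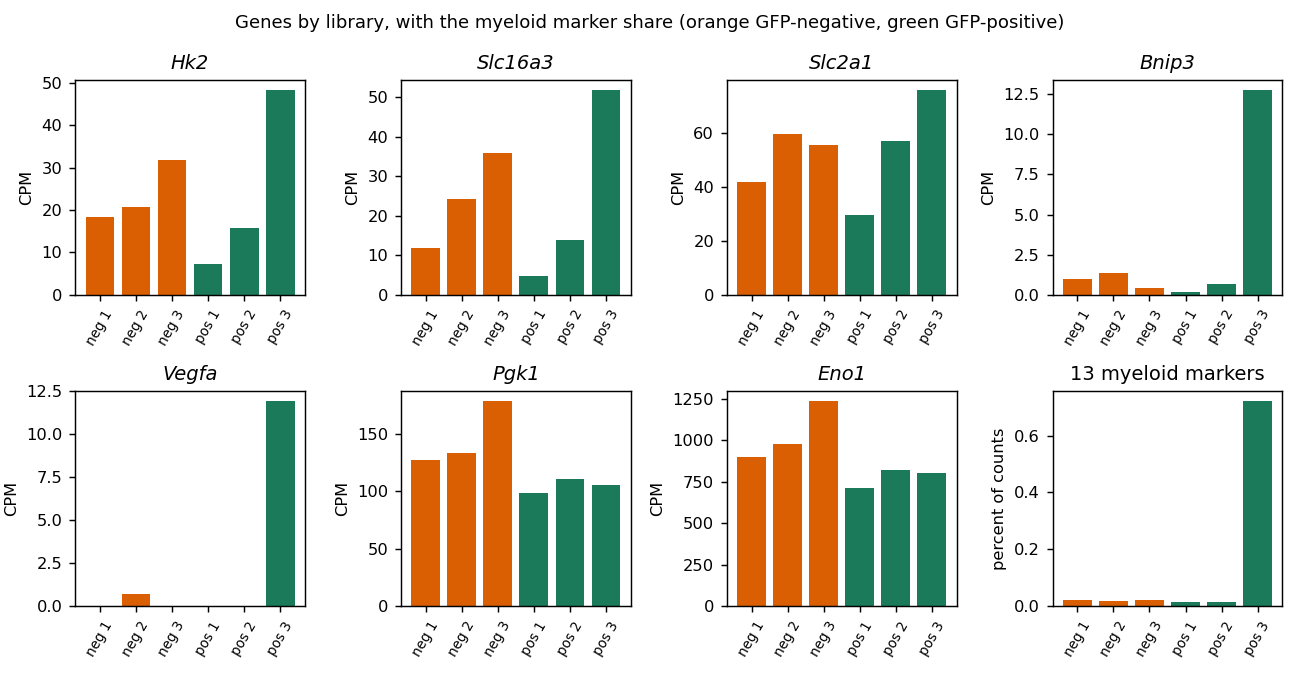
CPM by library of 7 members and, in the last panel, the percent of counts held by 13 myeloid markers (neg, GFP-negative, orange; pos, GFP-positive, green; numbers are replicates). Hk2, Slc16a3, Slc2a1, Bnip3 and Vegfa have their highest bar in GFP-positive replicate 3, as the myeloid markers do at 0.721%, while Pgk1 and Eno1 are at 105.7 and 804 CPM there, below every GFP-negative library.

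Genes next to these pathways gave no call in edgeR's test either. All 8 pentose phosphate genes were tested, 4 with a positive and 4 with a negative log2 fold change (median 0.01), and 0 had an unadjusted p under 0.05. Without GFP-positive replicate 3, 2 were positive and 6 negative (median -0.25, close to that of the members in the same libraries), again with 0 at an unadjusted p under 0.05. Rpe had a log2 fold change of -0.15, Tkt of -0.17 and Rpia of 0.60, and without that library -0.18, -0.41 and 0.33. In the citric acid cycle 10 of 20 genes were positive and 10 negative with all libraries (median 0.01) and without GFP-positive replicate 3 (median 0.03), with 0 at an unadjusted p under 0.05 in both. Fh1, fumarase, had 43.4 ± 1.37 CPM in GFP-negative and 33.2 ± 3.51 CPM in GFP-positive libraries (SD, n = 3 each), and Dld, the E3 enzyme that pyruvate dehydrogenase shares with this cycle, 67.5 ± 4.04 and 54.2 ± 7.48 CPM. Neither gene overlapped between the gates (edgeR adjusted p = 0.616 and 0.644), and Sdhc had a log2 fold change of 0.39, which was 0.11 without GFP-positive replicate 3.

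Of 31 other isoforms and regulators of glucose use, 15 were tested, with 9 positive and 6 negative (median 0.36). Without GFP-positive replicate 3 there were 8 positive and 7 negative (median 0.11). Those not tested include the liver and muscle glucose transporters Slc2a2 and Slc2a4 and the liver pyruvate kinase Pklr. Pdp1, the phosphatase that reverses the Pdk kinases, had 42.4, 25.7 and 23.2 CPM in GFP-negative and 17.5, 13.1 and 19.5 CPM in GFP-positive replicates 1 to 3, without overlap. It differed by a log2 fold change of -0.86 ± 0.32 (SE; edgeR unadjusted p = 0.0198, adjusted p = 0.379), opposite in sign to that of Pdk1. Bpgm, which diverts a late intermediate into bisphosphoglycerate, had 0.84 ± 0.32 (SE; edgeR adjusted p = 0.381), and G6pc3, a glucose phosphatase, 0.83 ± 0.39.

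Among 23 other hypoxia genes, 18 were tested, 8 positive and 10 negative (median -0.06). Vhl, the ubiquitin ligase subunit that removes hydroxylated HIF1A, had 50.2, 35.0 and 44.3 CPM in GFP-negative and 22.7, 20.7 and 12.3 CPM in GFP-positive replicates 1 to 3. Every GFP-positive library was below every GFP-negative one. The log2 fold change of Vhl was -1.22 ± 0.29 with all libraries and -0.98 without GFP-positive replicate 3 (SE; edgeR unadjusted p = 0.00117, adjusted p = 0.142 and 0.187), a smaller p than that of any of the 34 tested members. Ero1l and Mxi1 had log2 fold changes of -0.29 and -0.66 (edgeR adjusted p = 0.54 and 0.608), and Mxi1 of -1.08 without GFP-positive replicate 3 (adjusted p = 0.247). In the list of glycogen and other sugar entry, 4 of 15 were positive and 11 negative (median -0.09). Pygl, glycogen phosphorylase, had 8.33, 6.14 and 12.7 CPM against 14.2, 17.01 and 42.7 CPM (edgeR adjusted p = 0.289), highest in GFP-positive replicate 3. Its log2 scale difference was 1.45, and 0.79 without that library. Pmm1 and Pygb had log2 fold changes of -0.84 and -0.38.

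Some of these counts could be shared with copies of the gene. Annotated transcripts of 56 other genes, 53 of them pseudogenes, match Gapdh over at least 100 bases at 97% identity or more, and their counts came to 0.581% of those of Gapdh. For Eno1 the share was 0.743%, mostly Eno1b, and for Pgk1, Pkm and Ldha it was under that of Gapdh. Mpc1 is less certain, since Mpc1-ps had 193 counts against 431 of Mpc1, and so is Bnip3, whose copies had 31 counts against 106. How the counter treated reads that fit several copies is not given in the sources used here.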

How the data were processed

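The authors deposited raw counts per gene and TPM for 6 libraries. Per the labels' protocols, cDNA was made with oligo-dT and random primers, amplified by PCR and tagged by transposition. No strand marking or molecular identifiers are named, so reads of genes overlapping on opposite strands cannot be told apart. The floor of 3 counts covers counting error only, whereas the SE and SD include the spread between libraries. The genome build mm10 and the tools STAR 2.7.10b, fastp 0.23.3, deepTools 3.5.1 and SAMtools 1.17 stand in the submitters' processing notes. Which read counter and gene annotation were used was not given in the sources used here.

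Counts were tested with edgeR 4.0.16 in R 4.3.3 (quasi-likelihood F-test, robust dispersions, TMM factors, default filter by gate with a minimum count of 10, gate as the only term) over 11074 genes, with Benjamini-Hochberg adjustment and a threshold of 0.05. CPM are relative to TMM-scaled totals. Standard errors (SE) are the log2 fold change divided by the root of F. Positive log2 fold changes mean higher values in GFP-positive cells. The deposited TPM served to compare genes and isoforms. The test was checked on simulated counts. No pair of replicates was a duplicate (smallest chi-square per degree of freedom 10.7).

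Members and lists were chosen with earlier results of these data known. CPM in every library is given for members with an unadjusted p under 0.05 with or without GFP-positive replicate 3, for members whose gates do not overlap, and for the most abundant member of each role. Of each neighbouring list the 3 genes with the smallest p are named. Alternatives were RLE factors, library size alone, 2 filters, DESeq2 1.42.0, limma-voom (limma 3.58.1), a replicate block, limma on log2 TPM, a threshold of 0.1 and leaving out each library.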

Additional observations from a re-analysis of the deposited data

How the results depend on the processing

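The count of members called was 0 in each direction under every alternative run, the threshold of 0.1 and each left-out library included. The log2 fold changes of Gapdh, Pgk1, Eno1, Pkm and Ldha stayed below 0 and that of Pdk1 above 0 in all 16 alternatives. The smallest effects of all 6 came without GFP-negative replicate 3, from -0.23 for Gapdh to 0.64 for Pdk1. Over left-out libraries the median of the members ran from -0.25 to -0.14. Scaling moved the median of all genes by less than 0.1.

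Over all genes, calls higher and lower in GFP-positive cells (4 and 8) became 167 and 206 with no filter, 70 and 130 with DESeq2, 1 and 4 with limma-voom, 7 and 16 at a threshold of 0.1, 1 and 0 with log2(TPM + 1), and 0 and 0 with log2(TPM + 0.1) or with log2(TPM + 1) and no filter. Library size alone gave 14 lower. Leaving out a library gave 0 to 13 higher and 0 to 29 lower, both largest without GFP-positive replicate 3. The causes were not tested.

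A replicate block gave 21 higher and 60 lower. The numbers 1 to 3 are not said to mark a shared mouse or day. Deviations of same-numbered libraries correlated at 0.104, 0.0971 and 0.104, and each library correlated best with its own number, a hint from the data and not the design. With the block, the smallest adjusted p among members was 0.153 (Pkm).

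Of 34 tested members, 13 changed sign under an alternative, none of them called. For Slc2a1 the log2 fold change was -0.009 with limma-voom, -0.0303 with the replicate block, -0.0973 with log2(TPM + 1), filtered or not, and -0.1009 with log2(TPM + 0.1). For Hk2 it was -0.0378 with library size alone, -0.26 with limma-voom, -0.34 with the block, -0.36 with log2(TPM + 1), filtered or not, and -0.43 with log2(TPM + 0.1). For Pfkfb4 it was -0.17 with limma-voom, -0.47 with the block, -0.0774 with log2(TPM + 1), filtered or not, and -0.18 with log2(TPM + 0.1). With log2(TPM + 1), filtered or not, and with log2(TPM + 0.1), it was -0.0239 and -0.0278 for Pfkfb3, -0.0246 and -0.0278 for Mpc1, and -0.0108 and -0.0112 for Mpc2. Over left-out libraries the ranges were -0.27 to 0.345 for Slc2a1, -1.03 to 0.445 for Hk2, -0.16 to 0.0288 for Gpi1, -0.21 to 0.32 for Pfkfb3, -1.62 to 0.72 for Pfkfb4, -0.21 to 0.0352 for Aldoa, -0.63 to 0.0243 for Pgam1, -1.11 to 0.0719 for Eno3, -0.52 to 0.19 for Ldhb, -1.37 to 0.46 for Slc16a3, -0.14 to 0.0599 for Pdhb, -0.21 to 0.34 for Mpc1 and -0.0525 to 0.11 for Mpc2. Members under about 100 counts in all, Pfkfb4, Eno3 and Vegfa among them, are limited by depth.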
